A study of Mus musculus with 24 samples.

Results

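The genes described here are 31 direct or well-established transcriptional targets of the mouse tumour suppressor p53, together with Trp53, the gene for p53 itself, which is counted among the 31. They were listed by name, with earlier results of these data known. A probe belonged to the list where the array design names a listed gene or an older alias of it, and the brightest probe of each gene was used. All 31 were found among 27976 genes on the arrays, all 31 were bright enough on at least 3 arrays to be tested, and 24389 genes were tested in all. The only member listed under an older name was Aen, which the array design calls Isg20l1.

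p53 is a transcription factor that is held at a low level in unstressed cells because the ubiquitin ligase Mdm2, itself a p53 target, marks it for destruction. DNA damage activates kinases that release p53 from Mdm2, and p53 then turns on genes for cell cycle arrest, apoptosis, DNA repair and its own feedback inhibition, so that much of its control runs through protein stability and not through the level of Trp53 mRNA. Blood-forming bone marrow is among the tissues most sensitive to p53-activating damage. 7,12-Dimethylbenz(a)anthracene (DMBA) and benzo(a)pyrene (BP) are polycyclic aromatic hydrocarbons that cytochrome P450 enzymes of the CYP1 family convert into diol epoxides that bind DNA. TCDD is a chlorinated dioxin that activates the same aryl hydrocarbon receptor, which induces CYP1 enzymes, but it is hardly metabolised to DNA-binding products.

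The study measured total marrow RNA from female mice, 6 weeks old, given 1 intraperitoneal injection. The groups were wild type (WT) with DMBA for 12 h (3 arrays), WT with BP for 6 h (2), WT with TCDD for 12 h (3), Cyp1b1-null with DMBA for 12 h (2), Cyp1a1-null with BP for 12 h (3) and Cyp1b1/Cyp1a1-null, called double-null here, with BP for 12 h (2). Their references were marrow after olive oil from WT (3 arrays), Cyp1b1-null (2), Cyp1a1-null (3) and double-null mice (1). The labels give the strain C57BL/6j for every group, the dose of 50 mg/kg once for all agents, TCDD included, no time after oil, and no description of how the null alleles were made. Each array is labelled as a pool of 9 samples, and no label says whether the arrays of a group came from separate animals. All p-values therefore measure the spread between arrays, which may be technical.

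Every value below is a log2 ratio of marrow RNA labelled with Cy3 to a common pool of oil-treated WT marrow labelled with Cy5 on the same array, so that 1 unit is a doubling. The dyes were never swapped. A gene is called higher or lower where limma's adjusted p is under 0.05 over all genes tested, in a fit of 1 mean per group to all 24 arrays. Since this is whole marrow, a change in the share of a cell type and a change in RNA per cell cannot be told apart.

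The array of WT oil replicate 1 stood apart. Its log ratios had an SD of 1.26, against 0.199 to 0.669 on the other 23 arrays, its Cy5 signals had a median rank correlation of 0.808 with the other arrays (the next lowest was 0.863), and the summed signal of 7 liver markers, in units of the array's 75th percentile, was 89.7, against 1.99 and 1.1 on WT oil replicates 2 and 3. Results are therefore given with and without it. Between 38.8% and 85% of Cy3 spots were well above background, and the number of arrays limits the precision. The 5th percentile of log2 Cy3 signal was 8.16 and 8.88 on TCDD replicates 1 and 2 and 7.71 and 8.01 on both Cyp1b1-null DMBA arrays, against 5.78 to 6.51 on all others. Arrays of different groups on 1 slide correlated with a mean r of 0.668 (11 pairs), and arrays of 1 group on different slides with a mean r of 0.215 (7 pairs), so that slide moves with many values here. The lowest correlation between arrays was -0.362, and the labels state the dyes, so the direction was kept. Erythroid and neutrophil markers were well above background in every group, as fits marrow. Cyp1a1 was not well above background on any Cyp1a1-null or double-null array. The Cyp1b1 probe was well above background in Cyp1b1-null marrow, and its place relative to the deletion is not stated in any source at hand, so it checks nothing.

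p53 binds DNA at pairs of a 10-base half-site, and the RefSeq promoter table (GRCm38.p6) held 23 of the 31 members, with 34 promoters. Over the 250 bases before each start, on both strands, the canonical p53 half-site occurred in 11 of the 23 member genes, 47.8%, and in 8.2% of all 27025 genes and 7.13% of all 32851 promoters of this length. A gene was counted if any of its promoters held a match, so 47.8% compares with 8.2% and not with 7.13%. The number of promoters per gene, 34 for 23 members and 32851 for 27025 genes, was not matched. Half-sites at most 13 bases apart occurred in 1 member, Cdkn1a, and in 18 of all genes. A match is a description of the letters and not a measured binding site. The windows of 3 members are shown, with half-sites in capitals, because Phlda3 and Ccng1 had the most extreme DMBA differences reported below and Cdkn1a, which encodes the cell cycle inhibitor p21, is the best known target. The Phlda3 window is chr1:135765835-135766084 on the plus strand, the Ccng1 window is chr11:40755287-40755536 on the minus strand and the Cdkn1a window is chr17:29090729-29090978 on the plus strand. The half-site of Ccng1 begins at base -185 from the start, those of Cdkn1a at -73 and -51, and the Phlda3 window held no match to these letters. Cdkn1a has another start, whose window chr17:29093519-29093768 held no match and is not shown.
Phlda3: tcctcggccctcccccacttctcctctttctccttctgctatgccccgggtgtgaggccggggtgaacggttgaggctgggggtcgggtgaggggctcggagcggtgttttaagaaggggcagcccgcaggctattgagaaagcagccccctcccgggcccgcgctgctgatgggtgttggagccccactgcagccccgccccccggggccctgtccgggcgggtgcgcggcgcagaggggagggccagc
Ccng1: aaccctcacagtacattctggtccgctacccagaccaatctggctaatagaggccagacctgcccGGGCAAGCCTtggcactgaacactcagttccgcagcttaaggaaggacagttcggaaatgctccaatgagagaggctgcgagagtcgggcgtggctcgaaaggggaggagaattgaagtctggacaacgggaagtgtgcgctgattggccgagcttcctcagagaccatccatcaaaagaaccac
Cdkn1a: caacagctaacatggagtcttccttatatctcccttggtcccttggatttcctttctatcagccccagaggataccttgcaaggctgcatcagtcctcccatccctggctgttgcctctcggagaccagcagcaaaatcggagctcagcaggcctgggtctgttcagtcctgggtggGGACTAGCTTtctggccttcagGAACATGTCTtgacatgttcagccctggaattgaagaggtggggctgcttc

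Whether DMBA raised p53 targets in WT marrow by 12 h was read first against TCDD, which shares the time and the labelled dose and does not use the oil arrays. Ccng1, Phlda3 and Sulf2 rose in DMBA-treated relative to TCDD-treated marrow, 3 of 31 members, where 0.488% of all genes tested were called higher and no member was called lower. Phlda3, a pleckstrin homology protein that restrains Akt signalling, had log2 ratios of 1.62, 1.64 and 1.57 on the DMBA arrays, against -0.17, -0.06 and 0.27 on the TCDD arrays. The 3 DMBA arrays lay within 0.07 of each other, and every one was above every TCDD array, as for 17.3% of all genes. The difference was 1.60 ± 0.20 (SE; adjusted p = 0.00224). Ccng1, which encodes cyclin G1, a p53 feedback partner that acts with protein phosphatase 2A, had 1.07, 0.96 and 1.45 on the DMBA arrays, against -0.44, -0.42 and -0.85 on the TCDD arrays. The difference of 1.73 ± 0.16 was the second smallest p of all genes tested (adjusted p = 8.7e-05). Sulf2, an extracellular sulfatase that removes 6-O-sulfate groups from heparan sulfate, had 1.33, 1.26 and 1.67 on the DMBA arrays, against 0.46, 0.13 and 0.20 on the TCDD arrays. Here too the groups did not overlap, with a difference of 1.16 ± 0.25 (adjusted p = 0.0493). Sulf2 lost its call without any 1 of the 6 arrays compared (adjusted p = 0.114 to 0.233), while Ccng1 and Phlda3 kept theirs. Another Sulf2 probe gave 1.29.

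**Figure D1:**
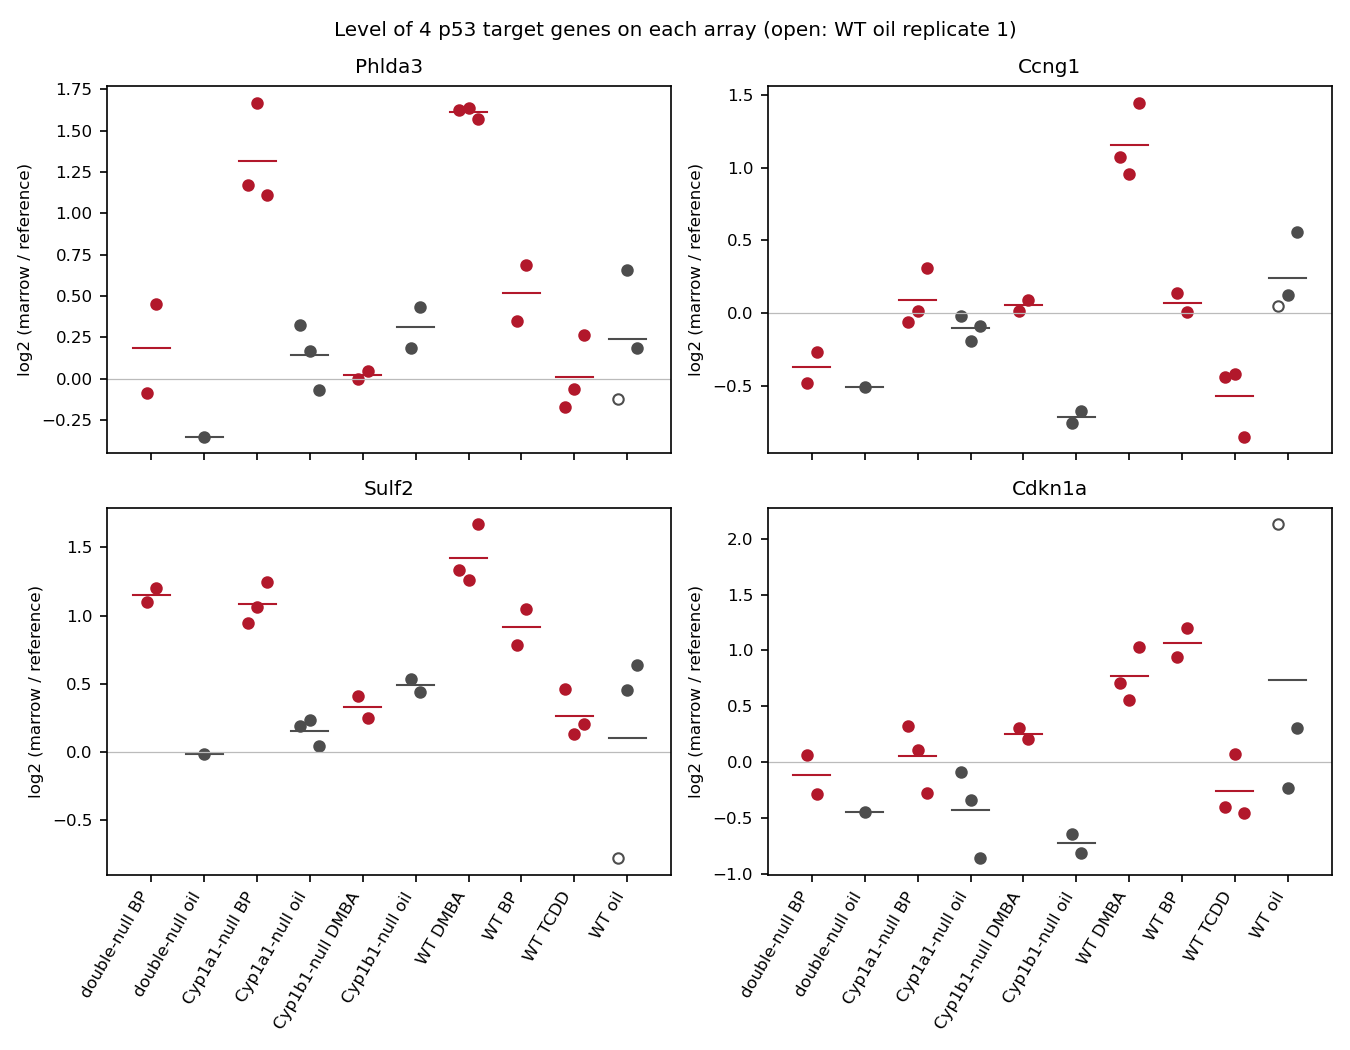
Log2 ratio of sample over pooled oil-treated WT marrow (y axis) for Phlda3, Ccng1, Sulf2 and Cdkn1a on each of the 24 arrays, by group (x axis), with the group mean as a bar; WT oil replicate 1 is drawn open. Phlda3 reached 1.57 to 1.64 in DMBA-treated WT marrow and 1.11 to 1.67 in BP-treated Cyp1a1-null marrow, against 0.00 and 0.05 in DMBA-treated Cyp1b1-null marrow and -0.09 and 0.45 in BP-treated double-null marrow.

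Leaving out WT oil replicate 1, which enters this comparison only through the estimate of the spread, gave 9 members called higher and 1 lower, where 4.42% and 1.87% of all genes were called. The members added were Zmat3, Psrc1, Polk, Cdkn1a, Ei24 and Trp53inp1 as higher and Cd82 as lower. Cdkn1a had 0.71, 0.56 and 1.03 on the DMBA arrays, against -0.40, 0.07 and -0.45 on the TCDD arrays, a difference of 1.03 ± 0.21 without that array (adjusted p = 0.00799; 0.392 with it). Zmat3, a zinc finger RNA-binding protein, had 0.46, 0.68 and 0.95 on the DMBA arrays, against -0.19, -0.03 and -0.19 on the TCDD arrays. Polk, a translesion polymerase that copies past bulky hydrocarbon adducts, had 0.29, 0.27 and 0.51 on the DMBA arrays, against -0.25, -0.06 and -0.59 on the TCDD arrays. Both genes were dim, and the size of their differences depended on the background correction: 0.83 ± 0.13 for Zmat3 and 0.66 ± 0.12 for Polk, but 2.09 and 1.95 with the scanner's processed signals. Psrc1, a spindle-associated protein, had 0.69, 0.71 and 0.68 on the DMBA arrays, against -0.07, -0.15 and 0.15 on the TCDD arrays. Its difference of 0.71 ± 0.13 stood beside 0.83 ± 0.18 for Ei24, an endoplasmic reticulum protein, and 0.47 ± 0.13 for Trp53inp1, a nuclear partner of p53. On another probe neither Psrc1 (0.33, adjusted p = 0.159) nor Trp53inp1 (0.63, adjusted p = 0.255) passed. Cd82, a tetraspanin known as a metastasis suppressor, was the member that fell, with -0.15, -0.13 and -0.18 on the DMBA arrays, against 0.26, 0.12 and 0.23 on the TCDD arrays (difference -0.36 ± 0.10, adjusted p = 0.0387).

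Over the whole list, the median DMBA minus TCDD difference was 0.29, against 0.01 over all genes, and 22 of 31 members were positive, against 51.6% of all genes. The 3 DMBA arrays lay above all 3 TCDD arrays for 16 members and below them for 5, of 30 with a value on every array, where 17.3% and 14.6% of all genes did so. The members that did not pass include well-known targets. Mdm2 differed by 0.23 (95% interval 0.00 to 0.46), Bax, an apoptosis effector, by 0.39 (0.14 to 0.63), Fas, a death receptor, by 0.48 (0.17 to 0.78) and Gadd45a, a growth arrest gene, by 0.09 (-0.14 to 0.32), all without WT oil replicate 1. The intervals for Bax and Fas lie above 0 before adjustment over all genes, and the interval for Gadd45a spans 0. All 3 TCDD arrays share a slide that holds no other group, and the WT DMBA arrays lie on 2 others, so slide and agent cannot be told apart within a slide. None of the 31 members passed once slide was a random block (0% of all genes called), and without WT oil replicate 1 as well Ccng1 (adjusted p = 0.00343) and Sulf2 (0.0487) did (0.0451% of all genes). Cyp1a1, the standard readout of receptor activation, had 1.93, 1.76 and 1.91 on the DMBA arrays, against 0.18, 0.15 and 1.55 on the TCDD arrays. The TCDD arrays with the lower Cyp1a1 ratios are those with the high signal floor, and its part in the p53 target differences was not tested. Summed marker signals, in units of the array's 75th percentile, also differed between these groups. For 8 stromal and bone markers the sum was 25.9 to 29.5 after DMBA, against 8.16 to 8.97 after TCDD. For 12 neutrophil and granulocyte precursor markers it was 791 to 823 after DMBA, against 291, 351 and 638 on TCDD replicates 1 to 3. For 10 monocyte and macrophage markers it was 94.2 to 117 after DMBA, against 33.5, 43.5 and 75.3 on those TCDD arrays. In both lists the lowest sums were those of the TCDD arrays with the high signal floor. At least 5 of the 8 stromal markers and all markers of the other lists were well above background on each of these arrays. Their part in the differences was not tested.

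**Figure D2:**
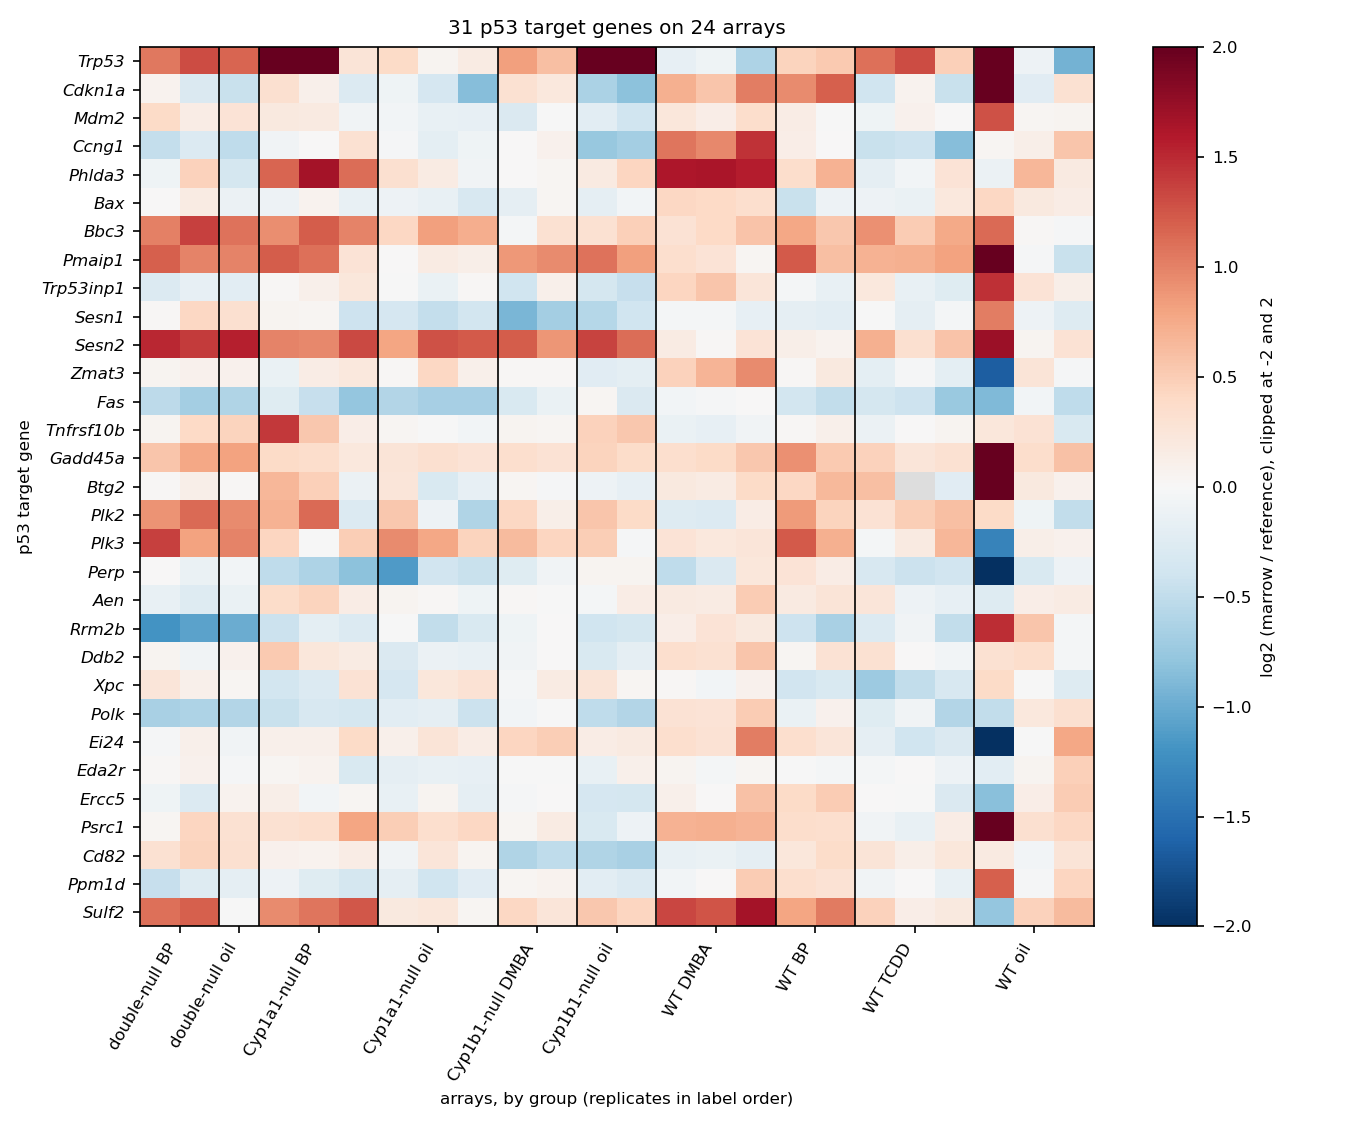
Log2 ratios of the 31 members (rows) on the 24 arrays (columns, by group), coloured from -2 to 2 and clipped beyond, with the 1 missing value in grey. The WT oil replicate 1 column departs from the other WT oil columns in both directions for many members, for example 3.77 for Pmaip1 and -1.65 for Zmat3.

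Against WT oil, DMBA called no member and no gene at all (0% of 24389, lowest adjusted p = 0.0604), although 7 members and 2999 genes had a p under 0.05 before adjustment. There were also 0 calls (0%) when WT oil replicate 1 was left out, with 8 members and 2178 genes at a p under 0.05 before adjustment. The smallest p of all 24389 genes belonged to Phlda3, which had 1.62, 1.64 and 1.57 in DMBA-treated marrow, against -0.12, 0.66 and 0.19 in oil-treated marrow. Its difference was 1.37 ± 0.20 (adjusted p = 0.0604), or 1.19 ± 0.20 without WT oil replicate 1 (adjusted p = 0.0517). Ccng1 stood at rank 4, with oil values of 0.05, 0.12 and 0.56 and a difference of 0.92 ± 0.16 (adjusted p = 0.132). Sulf2 stood at rank 10, with oil values of -0.78, 0.46 and 0.63 and a difference of 1.32 ± 0.25 (adjusted p = 0.187), and at rank 2 without WT oil replicate 1 (0.88 ± 0.14, adjusted p = 0.0517). For each of these 3 genes every DMBA array was above every oil array, as for 6 of 31 members and 5.99% of all genes.

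The slide allows a closer look, because DMBA replicates 1 and 2 and oil replicate 2 share one. Within that slide, in a fit of 2 DMBA arrays against 1 oil array, 9 members were called higher and 2 lower, where 14.2% of all genes were called higher and 29% were called in either direction. The differences were 0.97 for Phlda3, 0.89 for Ccng1, 0.86 for Cdkn1a and 0.84 for Sulf2, with Bbc3, Ei24, Pmaip1, Psrc1 and Zmat3 also higher, by 0.31 to 0.38. Rrm2b and Tnfrsf10b were lower, by 0.36 and 0.43. These calls rest on the spread of a single pair of arrays. In a fit of all arrays that treats slide as a random block, Ccng1 (adjusted p = 0.0414) and Sulf2 (0.0437) were called (0.156% of all genes), and without WT oil replicate 1 as well Phlda3 joined them (0.0425; 0.291% of all genes).

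Cdkn1a depended on WT oil replicate 1. Its oil values were 2.13, -0.23 and 0.31, and the first of them lies above all 3 DMBA arrays. The DMBA minus oil difference was 0.03 with that array and 0.73 ± 0.24 without it (adjusted p = 0.301). The oil values of Mdm2 were 1.28, 0.04 and 0.06, against 0.23, 0.13 and 0.35 in DMBA-treated marrow, with a difference of 0.19 without that array (adjusted p = 0.73). Without it the median member difference was 0.16, against 0.02 over all genes, and 23 of 31 members were positive, against 54.9% of all genes. In the authors' deposited table, the log2 DMBA against oil values were 1.28 for Phlda3, 0.93 for Sulf2, 0.73 for Ccng1 and 0.667 for Cdkn1a. That table gives 1.39 for Eda2r, which was -0.24 here without WT oil replicate 1 (0.87 with processed signals) and well above background on only 1 of the 3 DMBA arrays. Over all probes, which are not independent replicates, the authors' deposited table had a Spearman correlation of 0.234 with the differences computed here.

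Whether these values differed in mice without Cyp1b1, an enzyme of hydrocarbon activation that marrow stroma expresses, is the question of the second DMBA experiment. In DMBA-treated Cyp1b1-null marrow, Phlda3 and Ccng1 fell relative to DMBA-treated WT marrow. These were 2 of 31 members, where 0.0656% of all genes were called lower and no member was called higher. With the scanner's processed signals and all arrays, no member was called (6 of 24389 genes called). Without WT oil replicate 1 those signals called 6 members and 542 genes. Phlda3 had 0.00 and 0.05 in Cyp1b1-null marrow, against 1.62, 1.64 and 1.57 in WT marrow, a difference of -1.59 ± 0.23 (adjusted p = 0.0124). Ccng1 had 0.01 and 0.09 in Cyp1b1-null marrow, against 1.07, 0.96 and 1.45 in WT marrow, a difference of -1.11 ± 0.18 (adjusted p = 0.0257). Neither gene overlapped between the genotypes, where 18.2% of all genes were lower and 23.7% higher on every Cyp1b1-null array. With 1 of the 5 arrays left out, the adjusted p of Ccng1 was 0.0677 to 0.446, and that of Phlda3 was 0.0268 without WT DMBA replicate 3 and 0.0692 to 0.346 without each of the other 4. Without WT oil replicate 1, Sulf2 (-1.09 ± 0.14), Sesn1 (-0.71 ± 0.14), Zmat3 (-0.68 ± 0.15) and Psrc1 (-0.60 ± 0.14) were also called lower and Sesn2 (0.89 ± 0.16) higher, where 0.718% of all genes were called lower and 0.857% higher. The Sulf2 difference was -0.27 with the scanner's processed signals in the same 23 arrays (adjusted p = 0.505). Zmat3 was dim, with a mean log2 Cy3 signal of 7.40 over all arrays. It read 0.02 on both Cyp1b1-null DMBA arrays, where the 5th percentile of log2 Cy3 signal was 7.71 and 8.01. The mean signal over all arrays was 8.74 for Phlda3, 8.91 for Sulf2 and 9.785 for Ccng1. The part of this floor in their differences was not tested. Sesn1 and Sesn2 encode sestrins, stress proteins that inhibit mTORC1. They moved in opposite directions here, and another probe for Sesn2 differed by only 0.20. The calls of Sesn1 (-0.55, adjusted p = 0.204) and Psrc1 (-0.31, adjusted p = 0.497) were also lost on another probe, and with all arrays so was that of Ccng1 (-0.72, adjusted p = 0.104). The median over the list was -0.24, against 0.01 over all genes, and 8 of 31 members were positive, against 53.8%.

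Against oil of their own genotype, the Cyp1b1-null DMBA arrays called no member (0.0246% of all genes called, 3 members with a p under 0.05 before adjustment), and without WT oil replicate 1 they called 3 higher and none lower, where 3.28% of all genes were called higher. Phlda3 had 0.00 and 0.05 after DMBA, against 0.19 and 0.43 after oil, and did not pass. Cdkn1a had 0.30 and 0.21 after DMBA, against -0.64 and -0.81 after oil, a difference of 0.98 ± 0.26 without that array (adjusted p = 0.0312). Ccng1 had 0.01 and 0.09 after DMBA, against -0.76 and -0.68 after oil (0.77 ± 0.18, adjusted p = 0.0207), and Polk rose by 0.51 ± 0.15 (adjusted p = 0.0443). Polk was dim, with a mean log2 Cy3 signal of 7.65 over all arrays. It read between -0.06 and -0.01 on the DMBA arrays, where the 5th percentile of that signal was 7.71 and 8.01. The part of this floor in the Polk difference was not tested. Cdkn1a was thus higher after DMBA than after oil on all arrays of this genotype, while Phlda3 was lower on all. Such separation was common, with 12 of 31 members and 34.8% of all genes higher, and 7 members and 37.9% of genes lower.

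The difference between both DMBA responses was tested directly, as Cyp1b1-null DMBA minus oil less WT DMBA minus oil. With all arrays no member passed (0.0082% of all genes called, 3 members with a p under 0.05 before adjustment). Without WT oil replicate 1, Phlda3 (-1.48 ± 0.30) and Sulf2 (-1.03 ± 0.21) were called lower, each with an adjusted p of 0.0208, where 1.68% of all genes were called lower. For Phlda3 the processed signals gave -1.15 (adjusted p = 0.145). For Sulf2 they gave 0.12: the Cyp1b1-null DMBA arrays read 1.11 and 1.42 in those signals, against 0.29 and 0.06 after oil, where the normexp setting read 0.41 and 0.25, against 0.54 and 0.44. Another Sulf2 probe gave -0.62 for the difference of responses (adjusted p = 0.143) and 0.21 for Cyp1b1-null DMBA minus oil, both without WT oil replicate 1. The direction of the Sulf2 response in Cyp1b1-null marrow thus depends on the background correction and the probe. With slide as a block, no member passed for the difference of responses, with all arrays (0% of all genes) or without WT oil replicate 1 (0.164% of all genes; adjusted p = 0.425 for Phlda3 and 0.191 for Sulf2). For Cyp1b1-null DMBA minus oil, the authors' deposited table gives 1.09 for Sulf2 and 0.08 for Phlda3. It holds no value for the difference of responses.

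Each Cyp1b1-null group lies on 1 slide, that of the oil arrays shared with BP replicates 1 and 2 of the Cyp1a1-null group, and neither slide holds a WT array. When slide was a random block, no member passed against WT DMBA (0% of all genes), also without WT oil replicate 1 (adjusted p = 0.289 for Phlda3, 0.176 for Ccng1 and 0.176 for Sulf2). Cyp1a1 read 0.23 and 0.04 in DMBA-treated Cyp1b1-null marrow, against 1.93, 1.76 and 1.91 in DMBA-treated WT marrow. On those Cyp1b1-null arrays its log2 Cy3 signal was 8.14 and 8.11, where the 5th percentile was 7.71 and 8.01. On the WT DMBA arrays its signal was 7.81 to 8.07, where the 5th percentile was 5.89 to 5.93. The summed signal of 12 B-lineage markers, in units of the array's 75th percentile, was 62.4 to 93 in DMBA-treated and 75.7 to 91.6 in oil-treated Cyp1b1-null marrow, against 194 to 207 in DMBA-treated and 197 to 255 in oil-treated WT marrow, with at least 10 of the 12 well above background on each of these arrays. The sum was also 85.1 to 142 after TCDD. For the 8 stromal and bone markers the sum was at most 14.6 in DMBA-treated and 11.6 to 11.7 in oil-treated Cyp1b1-null marrow, against 25.9 to 29.5 in DMBA-treated and 17.8 to 22.4 in oil-treated WT marrow, with at least 7 of the 8 well above background on each array. The part of these values in the p53 target differences was not tested.

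**Figure D3:**
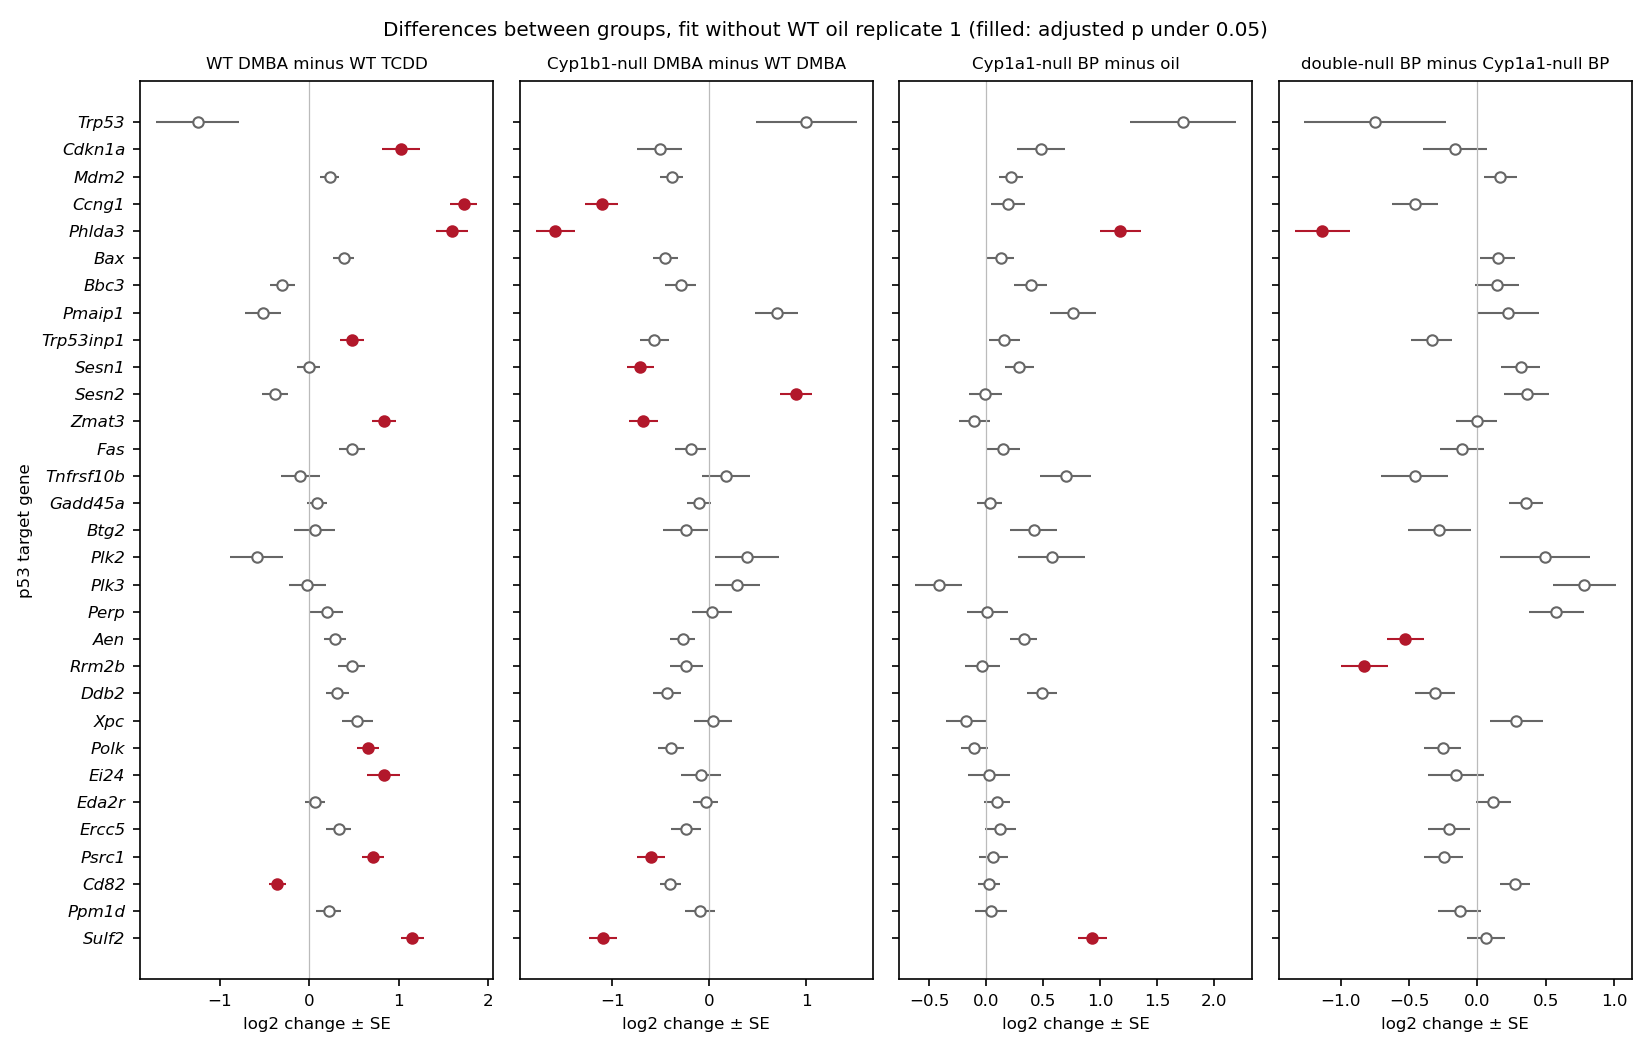
Log2 differences of the 31 members (rows) in 4 comparisons (panels) from the fit without WT oil replicate 1, with standard errors as bars and filled points for members called at an adjusted p under 0.05. Ccng1, Phlda3 and Sulf2 are filled on the positive side for DMBA minus TCDD (1.73, 1.60 and 1.16) and on the negative side for DMBA-treated Cyp1b1-null minus WT (-1.11, -1.59 and -1.09).

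BP was given to 3 genotypes, at 6 h in WT mice and at 12 h in the others, so these are set side by side and only the 12 h groups are compared. In WT marrow at 6 h no member was called against oil (0.709% of all genes called, 6 members with a p under 0.05 before adjustment). Cdkn1a, Bbc3 and Pmaip1 were called higher and Rrm2b lower without WT oil replicate 1, where 1.45% and 2.3% of all genes were called. Cdkn1a had 0.94 and 1.20 after BP, against 2.13, -0.23 and 0.31 after oil. Pmaip1, also called Noxa, had 1.22 and 0.60 after BP, against 3.77, -0.02 and -0.44 after oil. Both BP arrays lay above oil replicates 2 and 3 and below replicate 1 for both genes, so that the Pmaip1 difference was -0.19 with that array and 1.14 ± 0.25 without it (adjusted p = 0.0183), and that of Cdkn1a 0.33 and 1.03 ± 0.26 (adjusted p = 0.0361). Bbc3, also called Puma and like Noxa a BH3-only activator of apoptosis, had 0.77 and 0.54 after BP, against 1.14, 0.03 and -0.02 after oil. Rrm2b, the p53-inducible subunit of ribonucleotide reductase, had -0.41 and -0.65 after BP, against 1.48, 0.56 and -0.04 after oil, a difference of -0.79 ± 0.18 without that array (adjusted p = 0.0261). Phlda3 read 0.35 and 0.69 and Sulf2 0.78 and 1.05 at this time, and neither passed.

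In Cyp1a1-null marrow at 12 h after BP, Phlda3 and Sulf2 were the members with the clearest difference from oil. Phlda3 had 1.17, 1.67 and 1.11 after BP, against 0.32, 0.17 and -0.07 after oil. Sulf2 had 0.95, 1.06 and 1.25 after BP, against 0.19, 0.23 and 0.04 after oil. All BP arrays lay above all oil arrays for both genes, as for 8.74% of all genes. BP replicates 1 and 2 differ from the oil arrays in slide and in software version. The differences were 1.18 ± 0.20 for Phlda3 and 0.93 ± 0.25 for Sulf2, and no member passed with all arrays (0.0328% of all genes called, adjusted p = 0.0606 for Phlda3, 6 members with a p under 0.05 before adjustment). Without WT oil replicate 1 both rose (adjusted p = 0.00776 for Phlda3 and 0.00272 for Sulf2), where 0.144% of all genes were called higher and no member was lower. Another Sulf2 probe differed by 0.64 and did not pass (adjusted p = 0.0727). BP replicate 3 shares a slide with the oil arrays, and within that slide it was 0.97 higher for Phlda3 and 1.10 higher for Sulf2, with no member called (0.0164% of all genes). Cdkn1a had 0.32, 0.11 and -0.28 after BP, against -0.09, -0.34 and -0.86 after oil. These groups overlapped, as did those of Mdm2, with 0.20, 0.17 and -0.07 after BP, against -0.05, -0.15 and -0.16 after oil.

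In double-null marrow, Sulf2 had 1.10 and 1.20 after BP, against -0.01 on the only oil array. All 3 arrays share a slide, and the fit assumes that the lone oil array varies like the other groups. No member passed with all arrays (0.287% of all genes called, 1 member with a p under 0.05 before adjustment), and without WT oil replicate 1 Sulf2 rose by 1.17 ± 0.19 (adjusted p = 0.00481; 0.316% of all genes called higher). Within that slide alone it did not pass (adjusted p = 0.208; 0.0738% of all genes called). Phlda3 had -0.09 and 0.45 after BP, against -0.35 after oil, and its difference of 0.53 did not pass.

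BP-treated double-null and BP-treated Cyp1a1-null marrow differ in Cyp1b1 and share the time. No member was called with all arrays (0.172% of all genes called, 6 members with a p under 0.05 before adjustment). Without WT oil replicate 1, Phlda3, Rrm2b and Aen were lower in double-null marrow, 3 of 31 members, where 1.95% of all genes were called lower. Phlda3 had -0.09 and 0.45 in double-null marrow, against 1.17, 1.67 and 1.11 in Cyp1a1-null marrow, a difference of -1.14 ± 0.20 (adjusted p = 0.00558). Rrm2b had -1.20 and -1.06 in double-null marrow, against -0.43, -0.20 and -0.28 in Cyp1a1-null marrow (-0.83 ± 0.17, adjusted p = 0.0125), but the oil array of the double-null genotype read -0.99 for it. Aen, an exonuclease of apoptosis, differed by -0.53 ± 0.13, and another probe for it by 0.36, the opposite direction. Sulf2 differed by 0.06 (95% interval -0.23 to 0.36). This interval takes no account of slide, so it cannot exclude a larger difference between the genotypes. These groups share no slide, and no member passed when slide was a random block (0% of all genes).

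Trp53 itself and Mdm2 gave no call in any treatment comparison, with or without WT oil replicate 1. Trp53 varied widely on its brightest probe, with -0.16, -0.09 and -0.62 in DMBA-treated WT marrow, 0.82 and 0.61 in DMBA-treated Cyp1b1-null marrow, 2.02, -0.10 and -0.95 in WT oil and 2.50 and 2.39 in Cyp1b1-null oil. In BP-treated Cyp1a1-null marrow it read 3.04, 2.49 and 0.25. The first 2 of those arrays share their slide with the Cyp1b1-null oil arrays and the third lies on the slide of the Cyp1a1-null oil arrays, which read 0.38, 0.05 and 0.16. Values of 1.05 to 1.31 were read on all 3 double-null arrays and of 0.48 to 1.31 on the TCDD arrays, each on a slide of their own, where slide and group cannot be told apart. Another probe for Trp53, printed at 10 spots per array, stayed between -0.32 and 0.86 on all 24 arrays. It gave a Cyp1b1-null minus WT oil difference of -0.38, where the brightest probe gave 2.97 ± 0.57 (adjusted p = 0.00208), both without WT oil replicate 1. No direction is therefore drawn for Trp53 mRNA. Mdm2 ranged from -0.39 to 0.38 on all arrays other than WT oil replicate 1, where it read 1.28.

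Of the 31 members, 14 had another probe that was well above background on at least 12 arrays. Among these, Ccng1 is given in full. After DMBA in WT marrow both probes were high, with 0.96 to 1.45 on the brightest and 0.75 to 1.12 on the other, and DMBA minus TCDD was 1.73 and 0.94 (adjusted p = 0.007 for the other probe). DMBA minus oil on the other probe was 0.94 ± 0.13 (adjusted p = 0.0363). After TCDD the brightest probe read -0.44, -0.42 and -0.85, and the other read -0.13 to 0.13. In Cyp1b1-null oil marrow the brightest read -0.76 and -0.68, and the other 0.17 and 0.32. The DMBA difference in WT marrow was thus seen by both probes, while the low TCDD and Cyp1b1-null oil values were seen by the brightest alone. On the other probe, Ccng1 in Cyp1b1-null marrow after DMBA (0.15 and 0.23) was close to oil of the same genotype (difference -0.06), and the difference of both DMBA responses was -0.86 (adjusted p = 0.0286 without WT oil replicate 1).

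**Figure D4:**
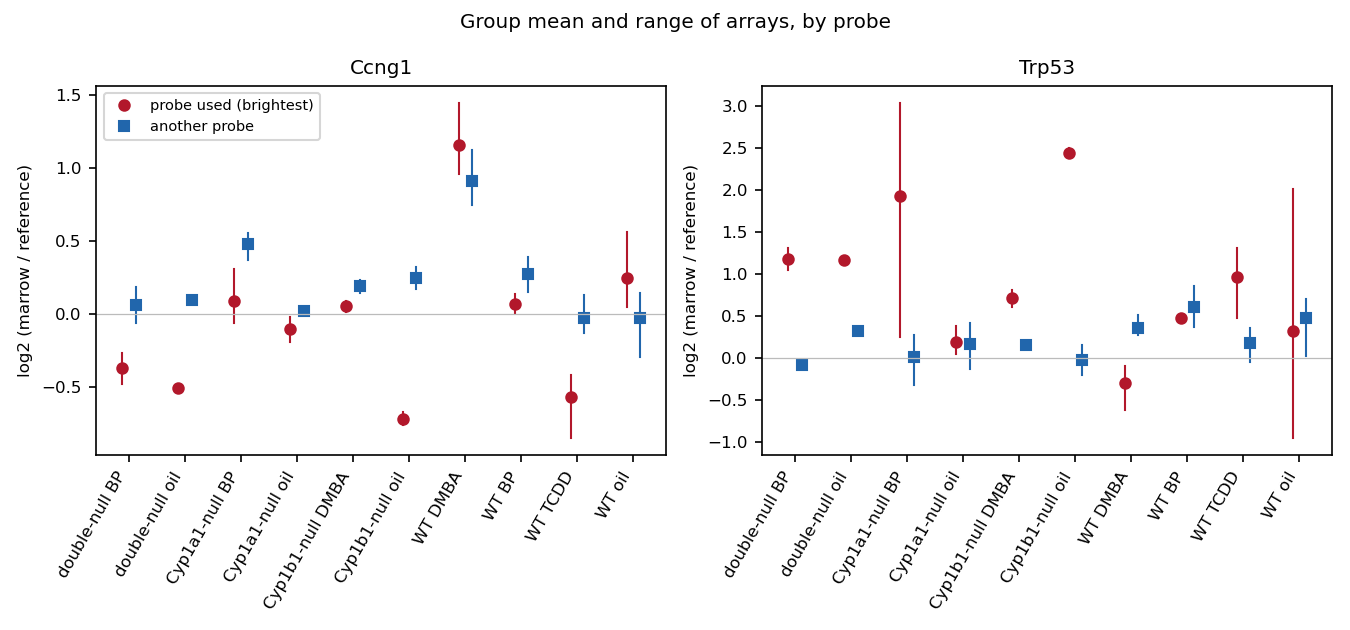
Group means (points) and ranges over arrays (bars) of the log2 ratio for the brightest and another probe of Ccng1 and of Trp53 in the 10 groups. Both Ccng1 probes are highest in DMBA-treated WT marrow (0.96 to 1.45 and 0.75 to 1.12), while the brightest Trp53 probe reaches 3.04 and the other stays between -0.32 and 0.86.

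TCDD against oil in WT marrow called Ccng1 lower on its brightest probe (-0.81 ± 0.16, adjusted p = 0.0221), 1 of 31 members where 1.84% of all genes were called lower, and the other probe gave 0.00. Without WT oil replicate 1, Bbc3 (0.72 ± 0.16) and Pmaip1 (0.97 ± 0.23) were called higher and Ccng1 and Polk lower, where 2.21% and 3.87% of all genes were called. Pmaip1 read 0.69, 0.72 and 0.80 after TCDD, against 3.77, -0.02 and -0.44 after oil, so that the sign of its difference depends on that array. The 95% interval of DMBA minus TCDD for Pmaip1 was -0.95 to -0.10.

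The genotypes were also compared after oil alone. Cyp1b1-null marrow called 6 members lower and none higher relative to WT, where 6.85% of all genes were called lower: Cd82, Ccng1, Trp53inp1, Rrm2b, Cdkn1a and Ppm1d, the last a phosphatase that switches p53 signalling off. Cd82 had -0.61 and -0.64 in Cyp1b1-null marrow, against 0.19, -0.06 and 0.26 in WT marrow (-0.75 ± 0.11, adjusted p = 0.00145). It stayed at -0.60 and -0.50 in DMBA-treated Cyp1b1-null marrow, and no array of another genotype was below -0.18. Cdkn1a had -0.64 and -0.81, against 2.13, -0.23 and 0.31 in WT marrow, and it was called lower with and without WT oil replicate 1 (-1.46 and -0.77). Without that array 8 members were lower and 3 higher, where 12.3% and 17.4% of all genes were called. The higher ones were Trp53, Pmaip1 (1.08 and 0.83, against -0.02 and -0.44 on WT oil replicates 2 and 3) and Sesn2 (1.36 and 1.12, against 0.06 and 0.29). Sesn2 rose by 1.07 ± 0.18, and its other probe by 0.53 (adjusted p = 0.0325).

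Sesn2 lay above WT oil replicates 2 and 3 on every oil array of the 3 null genotypes. It read 1.56 in double-null, 0.79, 1.27 and 1.23 in Cyp1a1-null and 1.36 and 1.12 in Cyp1b1-null marrow, against 1.70, 0.06 and 0.29 in WT marrow. Treated WT marrow read 0.16, 0.03 and 0.27 after DMBA, 0.12 and 0.07 after BP and 0.71, 0.33 and 0.57 after TCDD. All null arrays, treated or not, lay between 0.79 and 1.56, above every WT array but oil replicate 1. Another Sesn2 probe did not show this order: it read 0.25 to 0.29 in BP-treated double-null and 0.29 to 0.47 in DMBA-treated Cyp1b1-null marrow, against 0.35 to 0.43 in BP-treated and 0.23 to 0.79 in TCDD-treated WT marrow. On that probe the oil difference from WT, without WT oil replicate 1, passed for Cyp1a1-null (0.62, adjusted p = 0.0279) and not for double-null marrow (0.51, adjusted p = 0.161). None of the null oil groups shares a slide with a WT array, and genotype and slide cannot be told apart within a slide. The Cyp1a1-null oil arrays also differ from all WT arrays in software version. Cyp1a1-null oil marrow called Ppm1d lower with all arrays (-0.80 ± 0.22, adjusted p = 0.0497; 2.53% of all genes lower), a call lost on another probe (-0.40, adjusted p = 0.268), and without WT oil replicate 1 called Sesn2 and Bbc3 higher and Polk lower (3.19% and 4.29% of all genes). Double-null oil marrow, with 1 array, called Rrm2b lower (-1.66 ± 0.36, adjusted p = 0.0303; 0.853% of all genes lower), and without WT oil replicate 1 called Sesn2, Pmaip1 and Bbc3 higher and Rrm2b, Ccng1 and Polk lower (3.03% and 2.94% of all genes), with Ccng1 at -0.01 on its other probe. These 3 comparisons share the WT oil arrays, as do those of DMBA, BP and TCDD with oil.

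In all, 19 of the 31 members were called in at least 1 of the 13 comparisons with or without WT oil replicate 1. Beside those described, Ercc5, the XPG endonuclease of nucleotide excision repair, was lower in Cyp1b1-null oil marrow only without that array (-0.67 ± 0.17). The 12 members never called were Mdm2, Bax, Fas, Tnfrsf10b, Gadd45a, Btg2, Plk2, Plk3, Perp, Ddb2, Xpc and Eda2r. Apart from the difference of DMBA responses, their smallest adjusted p was 0.0523, or 0.0514 without WT oil replicate 1. They include the damage recognition factors Ddb2 and Xpc. Over the same comparisons, without that array, the differences of these 2 ran from -0.43 to 0.49 and from -0.39 to 0.54. The widest range was that of Plk2, a polo-like kinase, from -0.59 to 1.24, the upper end on the single double-null oil array. Eda2r was not well above background on any array of 5 groups, so its values there are bounds only. Tnfrsf10b, a death receptor, read 1.41, 0.54 and 0.13 in BP-treated Cyp1a1-null marrow, against 0.05, -0.00 and -0.06 after oil. It had no overlap and no call, where 8.74% of all genes were higher on every BP array.

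Other genes of the pathway were read in the same fits. Of 20 other genes known to be induced by p53, 18 were tested. None was called for DMBA against oil with or without WT oil replicate 1. For DMBA against TCDD 1 was called lower, Gpx1, a glutathione peroxidase (-0.87 ± 0.19, adjusted p = 0.0456), and without that array Vcan (0.83 ± 0.18) and Rps27l (0.65 ± 0.14) were called higher. Of 25 p53 regulators and DNA damage signalling genes, 23 were tested, and none was called for DMBA against oil or, with all arrays, against TCDD. Sirt1, a deacetylase, was higher after DMBA than after TCDD without WT oil replicate 1 (0.46, adjusted p = 0.0441), and in the same fit Rpl11, a ribosomal protein that binds Mdm2 (-0.66, adjusted p = 0.0269), and Nbn, of the MRN break-sensing complex (-0.41, adjusted p = 0.0489), were lower. After oil, Cyp1b1-null marrow called 8 of them lower and 1 higher relative to WT, where 6.85% of all genes were lower and 8.64% higher, among them Sirt1 (-0.87 ± 0.19), and the checkpoint kinase genes Chek2 (-0.82 ± 0.18) and Chek1 (-1.39 ± 0.38, or -0.76 ± 0.15 without WT oil replicate 1). For DMBA against oil the medians of both lists without WT oil replicate 1 were 0.07 and -0.11, against 0.16 for the 31 members.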

How the data were processed

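Marrow RNA of 24 samples was hybridised to Agilent 2-colour arrays with 41174 probes. Per the labels, Cy3 held the sample and Cy5 a pool of oil-treated WT marrow. The deposited intensity values are Agilent Feature Extraction mean and local background signals per the file headers, with the scanner's processed signals (background-subtracted and dye-normalized) as an alternative. The submitters' processing notes name limma, with no version. The deposited table of log2 differences between groups, made by the authors from the same arrays, was used only where named, and its scaling is not stated in any source at hand.

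Log2 ratios of Cy3 to Cy5 were computed with limma 3.58.1 in R 4.3.3: normexp background correction with offset 50, loess within arrays with control and non-uniform outlier spots at weight 0, and no scaling between arrays. Spots of 1 probe were averaged, the brightest probe was used per gene, and genes well above background in Cy3 on at least 3 arrays were tested. Probes were named from accessions and symbols through the RefSeq gene table where it holds them and by the array design otherwise. Feature Extraction flags (deposited values of 0 or 1, in no physical unit) set detection. A linear model with 10 group means over 24 arrays, moderated by eBayes, gave 13 comparisons with Benjamini-Hochberg adjusted p. Where another probe is given, it is the next brightest of the gene.

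The members, lists, rules and tests were chosen with earlier results of these data known. Values on every array are given for up to 12 members called in either fit with the smallest adjusted p, and for Trp53, Cdkn1a and Mdm2. From each other list up to 3 called genes are named. Beside that rule, Bbc3, Gadd45a, Tnfrsf10b and Ercc5 were given values after these were seen, as were the examples among members that did not pass. The script was tested on simulated data. Replicate numbers did not pair samples (correlations of deviations -0.251 to 0.335 over 25 pairs). Alternatives were processed signals, between-array scaling, detection filters, probe rules, array weights, slide and replicate blocks and leaving out each array. The liver markers were among marker lists that also covered erythroid, neutrophil, B, T and NK, megakaryocyte, monocyte, stem and stromal cells.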

Additional observations from a re-analysis of the deposited data

Results flagged for a closer look

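The DMBA responses of Cyp1b1-null and WT marrow differed for Phlda3 and Sulf2 by a test of the difference itself, in the fit without WT oil replicate 1. For Phlda3 the difference of responses was -1.48 ± 0.30 (adjusted p = 0.0208): DMBA minus oil was -0.29 in Cyp1b1-null and 1.19 in WT marrow. For Sulf2 it was -1.03 ± 0.21 (adjusted p = 0.0208), with DMBA minus oil at -0.16 in Cyp1b1-null and 0.88 in WT marrow. With all 24 arrays the values were -1.66 (adjusted p = 0.135) and -1.48 (adjusted p = 0.198). With processed signals and without WT oil replicate 1 they were -1.15 (adjusted p = 0.145) for Phlda3 and 0.12 (adjusted p = 0.837) for Sulf2. Another Sulf2 probe gave -0.62 without that array (adjusted p = 0.143). With slide as a random block and without that array, neither passed, with -1.28 (adjusted p = 0.425) for Phlda3 and -1.11 (adjusted p = 0.191) for Sulf2. The part of the high signal floor on the Cyp1b1-null DMBA arrays in these values was not tested. No group held 4 or more arrays, so no single array was tested as an outlier of its group.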

How the results depend on the processing

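Counts below are of the 31 members called, first with all 24 arrays and then under alternatives that moved the count. The number of all genes called moved as well. Of 24389 genes, processed signals without WT oil replicate 1 called 7527 for oil-treated Cyp1b1-null against WT and 2914 for TCDD against oil. They called 2441 for DMBA against TCDD and 1808 for Cyp1b1-null DMBA against oil. For DMBA against oil in WT the count was 0, with 2 for the mean of probes, another probe or the slide block, 3 for another probe or the slide block without WT oil replicate 1, 11 within slide 2, and 0 to 5 when each array was left out. For WT BP against oil it was 0, with 4 for another probe without WT oil replicate 1, and 0 to 5 over left-out arrays. For TCDD against oil it was 1, with 3 for processed signals, 6 for these without WT oil replicate 1, 3 for another probe without it, 0 for the mean of probes, another probe, array weights and both slide blocks, and 0 to 7 over left-out arrays. For DMBA against TCDD it was 3, with 12 for processed signals and 7 for another probe, both without WT oil replicate 1, 17 for array weights, 0 for the slide block, and 2 to 10 over left-out arrays. For Cyp1b1-null DMBA against oil it was 0, with 3 for processed signals and 1 for another probe, both without WT oil replicate 1, 13 for array weights, and 0 to 3 over left-out arrays. For DMBA-treated Cyp1b1-null against WT it was 2, with 0 for processed signals, 6 for these without WT oil replicate 1, 1 for another probe, 4 for another probe without that array, 19 for array weights, 0 for both slide blocks, and 0 to 7 over left-out arrays. For the difference of DMBA responses it was 0, with 2 for another probe without WT oil replicate 1, 3 for array weights, and 0 to 2 over left-out arrays. For Cyp1a1-null BP against oil it was 0, with 1 for another probe or the slide block, both without WT oil replicate 1, 14 for array weights, and 0 to 5 over left-out arrays. For double-null BP against oil it was 0, with 1 for processed signals or another probe without WT oil replicate 1, for array weights and for both slide blocks, and 0 to 1 over left-out arrays. For BP-treated double-null against Cyp1a1-null it was 0, with 3 for another probe without WT oil replicate 1, 5 for array weights, and 0 to 3 over left-out arrays. For oil-treated Cyp1b1-null against WT it was 6, with 15 for processed signals and 12 for another probe, both without WT oil replicate 1, 0 for the slide block, and 1 to 12 over left-out arrays. For oil-treated Cyp1a1-null against WT it was 1, with 0 for processed signals, array weights and both slide blocks, 2 for detection on at least 12 arrays or another probe, 3 for the mean of probes or another probe without WT oil replicate 1, and 0 to 12 over left-out arrays. For oil-treated double-null against WT it was 1, with 0 for processed signals and both slide blocks, 2 for processed signals and 4 for another probe, both without WT oil replicate 1, and 1 to 6 over left-out arrays. Array weights ran from 0.0303 for WT oil replicate 1 to 5.95. Of all 24389 genes these weights called 10519 for Cyp1b1-null DMBA against oil, 8820 for Cyp1a1-null BP against oil and 6529 for DMBA-treated Cyp1b1-null against WT. For DMBA against TCDD they called 4275, for the difference of responses 3412 and for BP-treated double-null against Cyp1a1-null 3170.

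The replicate number as a block gave 1 member for DMBA against oil, WT BP against oil, Cyp1a1-null BP against oil and BP-treated double-null against Cyp1a1-null, where 0 were called without it; it moved no other count by over 1.5 times. Same-numbered arrays did not deviate together throughout (correlations of -0.251 to 0.335 over 25 pairs), so the numbers were not taken to pair the samples.

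Pmaip1, at 3.77 on WT oil replicate 1 and -0.02 and -0.44 on the other WT oil arrays, changed sign in 4 comparisons. Against oil it was 1.14 for WT BP and 0.97 for TCDD without that array, and against WT oil 1.18 for Cyp1b1-null and 1.22 for double-null (also under the other-probe rule, which had no other Pmaip1 probe to use). Processed signals without that array gave 1.28, 1.10, 1.35 and 1.12, array weights 0.91, 0.73, 0.95 and 0.99, and the slide block without it 1.17, 0.99, 0.93 and 1.24, in the same order. The slide block with all arrays gave 0.0313 for WT BP and 0.10 for double-null, and WT BP without BP replicate 2 gave 0.12. Over left-out arrays the lowest values were -0.965 for WT BP, -1.14 for TCDD, -0.924 for Cyp1b1-null and -0.892 for double-null, each without WT oil replicate 3. Another probe turned Ccng1 to -0.0566 for Cyp1b1-null DMBA against oil (with and without WT oil replicate 1), to 0.27 and 0.14 for oil-treated Cyp1b1-null and to 0.12 for oil-treated double-null against WT, turned Aen to 0.36 for BP-treated double-null against Cyp1a1-null, and turned Trp53 to -0.50 and -0.38 for oil-treated Cyp1b1-null against WT. Processed signals without WT oil replicate 1 turned the Sulf2 difference of responses to 0.12. Over left-out arrays Cdkn1a ran between -0.149 (without WT oil replicate 2) and 1.03 (without WT oil replicate 1) for WT BP, and Ercc5 between -0.668 (without WT oil replicate 1) and 0.00205 (without WT oil replicate 3) for oil-treated Cyp1b1-null. Polk was 0.0328 for oil-treated Cyp1a1-null with the mean of probes. The cause was not tested. The processed signals together with leaving out WT oil replicate 1, and the other-probe fits, were added after the data were seen.

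Groups of 1 to 3 arrays limit these values, as does dim signal: Eda2r was not well above background on 19 of 24 arrays, Rrm2b and Tnfrsf10b on 2 each, and Zmat3, Polk and Ercc5 on 1 each.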

Other observations

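Bbc3, which encodes the apoptosis activator Puma, had log2 ratios of 1.01 and 1.36 after BP and 1.09 after oil in double-null marrow. In Cyp1a1-null marrow it had 0.92, 1.21 and 1.00 after BP and 0.42, 0.81 and 0.73 after oil, against 1.14, 0.03 and -0.02 in oil-treated WT marrow, where 1.14 was on replicate 1. With all 24 arrays Bbc3 passed in neither oil comparison. Without WT oil replicate 1 it was higher by 1.08 in oil-treated double-null marrow (adjusted p = 0.0103 by limma; 1 array) and by 0.65 in oil-treated Cyp1a1-null marrow (adjusted p = 0.0228), each against oil-treated WT marrow. Gadd45a had 0.56 and 0.78 after BP and 0.80 after oil in double-null marrow, against 3.39, 0.35 and 0.58 in oil-treated WT marrow, and passed in no comparison with or without WT oil replicate 1.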
